A study of Mus musculus with 9 samples.

Results

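The troponin genes are the 8 genes Tnni1, Tnni2, Tnni3, Tnnt1, Tnnt2, Tnnt3, Tnnc1 and Tnnc2, chosen by name from 55421 genes listed in each of the deposited tables. All 8 were found in both tables and all 8 had reads in every library. Troponin is the calcium switch of the thin filament in striated muscle: troponin C binds calcium, troponin I holds back the interaction of actin with myosin, and troponin T ties the complex to tropomyosin. Each subunit comes in forms that mark slow, fast or cardiac muscle, and developing skeletal muscle also makes the cardiac form of troponin T. Tnni1 and Tnnt1 encode the slow forms of troponin I and T, Tnni2, Tnnt3 and Tnnc2 the fast forms of I, T and C, and Tnni3 and Tnnt2 the cardiac forms of I and T. Tnnc1 encodes the form of troponin C shared by slow and cardiac muscle.

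The genes were measured by RNA-seq in C2C12 myotubes, the multinucleate muscle cells that arise when myoblasts of this mouse line fuse in culture. After 4 days of differentiation the cells received an adenovirus for 4 h, at a multiplicity of infection of 3, and were kept for 48 h in all. The virus carried LacZ (control), full-length PGC-1α with HA and Flag tags (FL), or the same protein without its C-terminal domain (dCTD). PGC-1α, encoded by Ppargc1a, is a transcriptional coactivator known for inducing mitochondrial genes in muscle, and its C-terminal domain holds sequences that bind RNA. Each group had 3 libraries, which the design text calls biological replicates of 1 cell line, and all groups carried an adenovirus, with no group without virus among these samples. The Ppargc1a RNA counts with the PGC-1α viruses lay far above those with LacZ, and these counts do not give protein. The promoter in the viruses is not given. Both points limit the groups as models of muscle.

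Ppargc1a had 397 ± 13.0 normalized counts (mean ± SD, n = 3) with LacZ, 211489 ± 14759 with FL and 112756 ± 10934 with dCTD, so all libraries of both PGC-1α viruses lay above all LacZ libraries. The dCTD libraries held fewer Ppargc1a counts than the FL libraries (log2 fold change of FL against dCTD 0.91). These counts are not divided by length and dCTD lacks the C-terminal part, so they do not show how transcript numbers compare. The part of an unequal Ppargc1a level in any other difference between FL and dCTD was not tested. Libraries held 87090490 to 123446198 reads, and 25707 to 26957 genes had reads in each. The myotube markers were present in all groups, where their summed level ran from 968305 to 1015316 normalized counts in the LacZ libraries, from 806293 to 832950 in the FL libraries and from 762125 to 783046 in the dCTD libraries. By limma, 1 of the 10 myotube markers rose and 8 fell with FL against LacZ, and 2 rose and 5 fell with dCTD. Of 9 tested markers of myoblasts and reserve cells, 4 rose and 2 fell in each comparison with LacZ. Of all tested genes, 59.2% passed with FL (30.9% higher, 28.3% lower) and 44.8% with dCTD (23.1% higher, 21.7% lower). Falls among the 10 myotube markers, 8 with FL and 5 with dCTD, were thus more frequent than among all genes. Rises among the 9 tested markers of myoblasts and reserve cells, 4 in each comparison, were also more frequent than among all genes. Both lists are short, and neither was tested as a set. Both lists were chosen with earlier results of these data known. Myog, a myogenic transcription factor, was 0.669 times its LacZ level with FL and also 0.669 times with dCTD. In bulk samples fewer cells of a type and less RNA per cell cannot be told apart, and the part of a changed share of myotubes in the troponin values was not tested.

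The promoter windows, 250 bases before to 50 after a RefSeq transcript start (GRCm38.p6, the build mm10 of the files), were available for 6 of the 8 genes, in 8 windows, of which 4 are printed 5′ to 3′ for the genes that have a window and the greatest fold changes with FL. Tnni2 and Tnnt3 had no window. Capitals mark matches to the E-box CANNTG, the MCAT motif CATTCC and TATAAA. E-boxes are bound by the MyoD family, and MCAT motifs by TEAD factors.
Tnni3, chr7:4522479-4522778, minus strand: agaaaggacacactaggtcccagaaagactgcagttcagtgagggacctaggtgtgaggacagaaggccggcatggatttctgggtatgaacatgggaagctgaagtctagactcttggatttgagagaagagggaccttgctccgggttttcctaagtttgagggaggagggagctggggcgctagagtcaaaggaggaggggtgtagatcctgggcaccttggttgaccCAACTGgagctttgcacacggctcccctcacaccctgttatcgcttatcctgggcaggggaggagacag
Tnnt1, chr7:4515926-4516225, minus strand: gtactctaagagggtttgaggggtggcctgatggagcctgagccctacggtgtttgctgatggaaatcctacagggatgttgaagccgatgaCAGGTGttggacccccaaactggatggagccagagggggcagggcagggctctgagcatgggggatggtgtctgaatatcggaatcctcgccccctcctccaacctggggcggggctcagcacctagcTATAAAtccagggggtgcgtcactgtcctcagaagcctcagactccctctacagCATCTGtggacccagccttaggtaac
Tnnt2, chr1:135836084-135836383, plus strand: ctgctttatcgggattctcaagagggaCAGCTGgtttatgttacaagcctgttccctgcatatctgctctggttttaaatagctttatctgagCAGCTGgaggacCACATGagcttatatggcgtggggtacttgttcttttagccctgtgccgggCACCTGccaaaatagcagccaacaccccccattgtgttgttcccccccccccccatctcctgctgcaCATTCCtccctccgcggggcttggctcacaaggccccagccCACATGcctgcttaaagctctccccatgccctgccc
Tnnc2, chr2:164779685-164779984, minus strand: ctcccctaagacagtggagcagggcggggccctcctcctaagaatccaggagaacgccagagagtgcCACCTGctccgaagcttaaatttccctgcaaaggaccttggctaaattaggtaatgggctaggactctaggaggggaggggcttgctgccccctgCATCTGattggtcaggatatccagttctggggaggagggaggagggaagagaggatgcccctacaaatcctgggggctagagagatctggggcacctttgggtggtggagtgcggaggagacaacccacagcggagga

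The E-box CANNTG, searched on both strands, occurred in all 8 windows, beside 72.3% of the 32851 RefSeq windows of the same length. The narrower E-box CAGCTG, a subset of those matches, occurred in 3 windows, namely both Tnni1 windows, which overlap, and the first Tnnt2 window, beside 16.3% of all windows. CATTCC, or its reverse GGAATG, occurred in 2 windows, of Tnnt2 and Tnnc1, beside 14.7%. TATAAA occurred in 1, at position -30 of Tnnt1, beside 13.6%. The half-site AAGGTCA of the estrogen-related receptors, partners of PGC-1α, occurred in 0 windows, beside 4.72% of all windows, and the MEF2 and CArG motifs also occurred in 0, beside 3.19% and 1.63%. Tnni3 had 1 match, CAACTG at position -19. The RefSeq start of Tnni3 lies 1701 bases inside the deposited gene. Those of the 2 Tnni1 windows lie farther inside theirs, at 19987 and 20077 bases. A match is only a run of letters, and no match says nothing of the factors.

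In troponin I, the cardiac gene Tnni3 rose 4.34-fold with FL and 14.9-fold with dCTD. The fast gene Tnni2 fell with both viruses, and the slow gene Tnni1 fell slightly with FL and did not pass the test with dCTD. Values are normalized counts, that is whole reads divided by a factor for library size, with the 9 libraries scaled together.

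Tnni3 (ENSMUSG00000035458, chr7:4518305-4524229 in mm10, minus strand), the inhibitory subunit of the heart, had 609, 618 and 556 normalized counts with LacZ, 2218, 2618 and 2900 with FL and 8444, 8375 and 9747 with dCTD. The 3 groups did not overlap, and dCTD was the highest. Against LacZ the log2 fold change was 2.11 ± 0.08 (SE, limma, adjusted p = 8.73e-12) with FL and 3.89 ± 0.06 (adjusted p = 2.56e-22) with dCTD. FL against dCTD was -1.78 ± 0.10 (limma, adjusted p = 2.07e-07), or 3.43 times more with dCTD, with a 95% interval of -2.00 to -1.56. Tnni3 stayed the lowest of the 8 troponin genes per length in all 3 groups.

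Tnni1 (ENSMUSG00000026418, chr1:135779434-135810989, plus strand), the slow inhibitory subunit, had 159440, 175077 and 168259 normalized counts with LacZ, 155199, 148409 and 157263 with FL and 175075, 172939 and 189446 with dCTD. The FL libraries lay below all LacZ libraries, and dCTD overlapped LacZ. The log2 fold change was -0.12 ± 0.04 (limma, adjusted p = 0.00906) with FL, a call lost when LacZ replicate 2 (-0.09, adjusted p = 0.0914) or FL replicate 2 (-0.10, adjusted p = 0.0647) was left out. Over 15 alternatives the adjusted p of this difference ran from 2.15e-05 to 0.0914. With dCTD it was 0.09 ± 0.04 (limma, adjusted p = 0.117, 95% interval -0.0044 to 0.18). FL was lower than dCTD by a log2 fold change of -0.22 ± 0.04 (limma, adjusted p = 0.000121).

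Tnni2 (ENSMUSG00000031097, chr7:142441808-142444410, plus strand), the fast inhibitory subunit, had 65704, 70791 and 64185 normalized counts with LacZ, 41391, 40054 and 41201 with FL and 46837, 47050 and 53775 with dCTD. Each group was separate from the others, with LacZ the highest and FL the lowest. The log2 fold change against LacZ was -0.71 ± 0.04 (limma, adjusted p = 5.06e-16) with FL and -0.45 ± 0.05 (adjusted p = 3.08e-07) with dCTD. FL against dCTD was -0.26 ± 0.05 (limma, adjusted p = 6.8e-05).

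**Figure D1:**
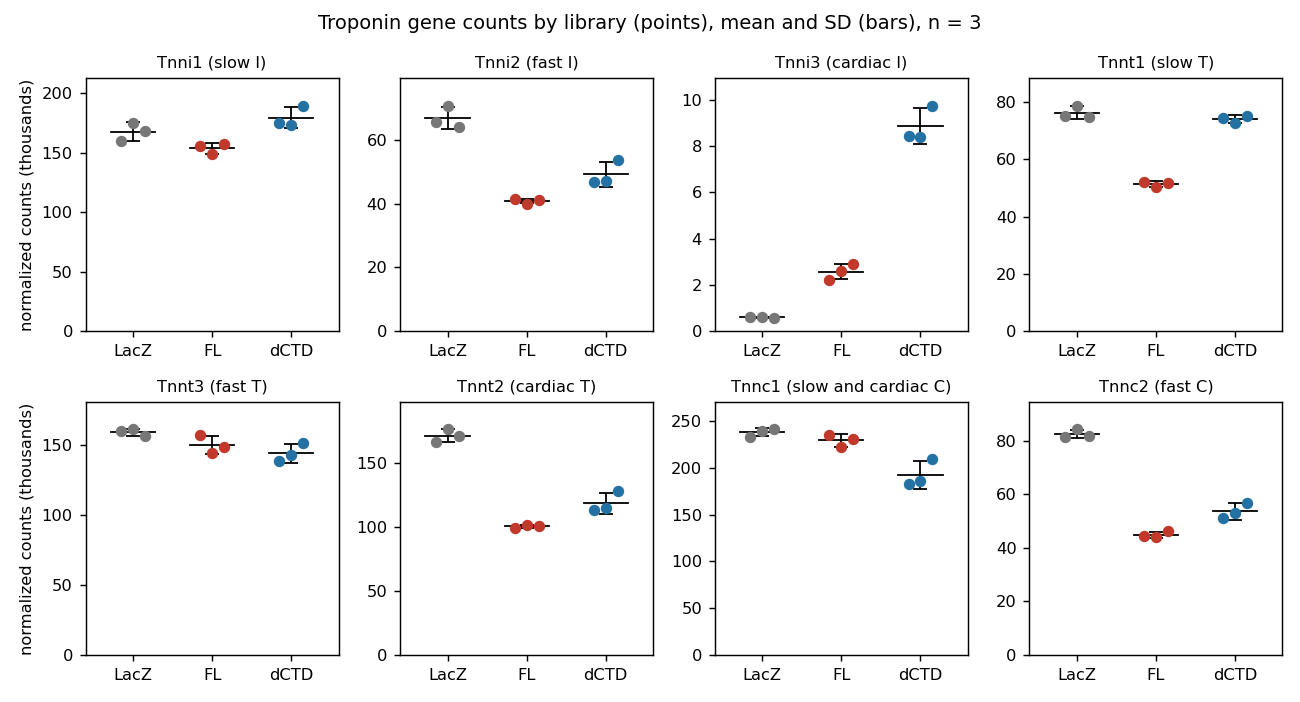
Normalized counts (axes in kilocounts) of the 8 troponin genes by virus, with a panel per gene, points for libraries, and bars for mean and SD (n = 3). Tnni3 sits lowest with LacZ and highest with dCTD, and the FL libraries of Tnni2, Tnnt1, Tnnt2 and Tnnc2 sit below all LacZ and dCTD libraries.

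In troponin T, the cardiac gene Tnnt2 fell with both viruses. The slow gene Tnnt1 fell with FL and did not pass the test with dCTD, while the fast gene Tnnt3 fell with dCTD, by a smaller amount, and missed the threshold with FL. Among the 8 genes the difference between FL and dCTD was greatest for Tnni3 and next for Tnnt1.

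Tnnt1 (ENSMUSG00000064179, chr7:4504570-4516382, minus strand) had 75255, 78814 and 74745 normalized counts with LacZ, 51938, 50339 and 51868 with FL and 74518, 72592 and 75170 with dCTD. The FL libraries lay below all others, and the dCTD libraries overlapped those of LacZ. The log2 fold change was -0.57 ± 0.04 (limma, adjusted p = 2.98e-14) with FL and -0.05 ± 0.04 (adjusted p = 0.328, 95% interval -0.13 to 0.03) with dCTD. FL against dCTD was -0.53 ± 0.04 (limma, adjusted p = 2.5e-12).

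Tnnt2 (ENSMUSG00000026414, chr1:135836354-135852260, plus strand), the form of the heart and of developing skeletal muscle, had 166491, 176426 and 170754 normalized counts with LacZ, 99346, 101450 and 100981 with FL and 113145, 114633 and 127907 with dCTD. The groups were separate, with FL the lowest. The log2 fold change was -0.77 ± 0.04 (limma, adjusted p = 2.08e-17) with FL and -0.54 ± 0.05 (adjusted p = 5.21e-10) with dCTD. FL was also below dCTD, by a log2 fold change of -0.23 ± 0.04 (limma, adjusted p = 5.12e-05).

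Tnnt3 (ENSMUSG00000061723, chr7:142498836-142516009, plus strand) had 160123, 161404 and 156399 normalized counts with LacZ, 156947, 144627 and 148333 with FL and 138396, 142883 and 151648 with dCTD. FL overlapped both other groups, and dCTD lay below LacZ. With FL the log2 fold change was -0.09 ± 0.04 (limma, adjusted p = 0.0561, 95% interval -0.17 to -0.01), and edgeR (adjusted p = 0.0432) and DESeq2 (adjusted p = 0.0412) on the recovered reads placed it past the threshold. Over 15 alternatives its adjusted p ran from 0.000109 to 0.26. With dCTD it was -0.15 ± 0.04 (limma, adjusted p = 0.00446), a call lost without dCTD replicate 1 (adjusted p = 0.0568), where 15 alternatives gave adjusted p from 7.77e-06 to 0.0568. FL against dCTD was 0.06 ± 0.04 (limma, adjusted p = 0.301, 95% interval -0.03 to 0.14) and turned to -0.0115 (adjusted p = 0.825) under scaling to the total count without Ppargc1a. Its adjusted p ran from 0.0798 to 0.825 over 18 alternatives.

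In troponin C, the fast gene Tnnc2 fell with both viruses, more with FL. The slow and cardiac gene Tnnc1 fell with dCTD, to 0.808 times its LacZ level, and did not pass the test with FL. It was the 1 troponin gene that was higher with FL than with dCTD by the test.

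Tnnc1 (ENSMUSG00000091898, chr14:31208312-31211729, plus strand) had 233212, 239530 and 241171 normalized counts with LacZ, 234997, 221748 and 230635 with FL and 182313, 185519 and 208819 with dCTD. FL overlapped LacZ, and dCTD lay below both. The log2 fold change was -0.05 ± 0.04 (limma, adjusted p = 0.231, 95% interval -0.13 to 0.02) with FL and -0.32 ± 0.05 (adjusted p = 4.27e-06) with dCTD. Under scaling to the total count without Ppargc1a the value with FL was -0.14 (limma, adjusted p = 0.000683), and 15 alternatives gave adjusted p from 0.000683 to 0.594. FL against dCTD was 0.26 ± 0.04 (limma, adjusted p = 3.22e-05).

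Tnnc2 (ENSMUSG00000017300, chr2:164777161-164779967, minus strand) had 81461, 84409 and 81800 normalized counts with LacZ, 44530, 43929 and 46225 with FL and 51027, 52912 and 56987 with dCTD. The groups were separate, with FL the lowest. The log2 fold change was -0.88 ± 0.04 (limma, adjusted p = 5.27e-19) with FL, the greatest fall of the 8 genes, and -0.63 ± 0.04 (adjusted p = 6.49e-12) with dCTD. FL against dCTD was -0.26 ± 0.04 (limma, adjusted p = 7.66e-06).

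With FL against LacZ, 1 troponin gene rose, 5 fell and 2 did not pass, beside 59.2% of 18227 tested genes that passed (30.9% higher, 28.3% lower). With dCTD against LacZ the counts were again 1, 5 and 2, beside 44.8% of 18066 genes (23.1% higher, 21.7% lower). For FL against dCTD, 1 gene was higher, 6 lower and 1 did not pass, beside 38.9% of 18155 genes (21.4% higher, 17.5% lower). The median log2 fold change of the 8 genes was -0.35, -0.23 and -0.25 in these comparisons, beside -0.007, -0.006 and -0.003 over all tested genes. Scaling by total count without Ppargc1a gave 4575 genes higher and 7140 lower for FL against LacZ, where the main scaling gave 5637 and 5162, and 3016 and 5324 for FL against dCTD, where it gave 3887 and 3172. The groups did not overlap for 6, 6 and 7 troponin genes in the 3 comparisons, beside 64.1%, 51.9% and 48.6% of 18155 genes. FL and dCTD were both compared with the same LacZ libraries.

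**Figure D2:**
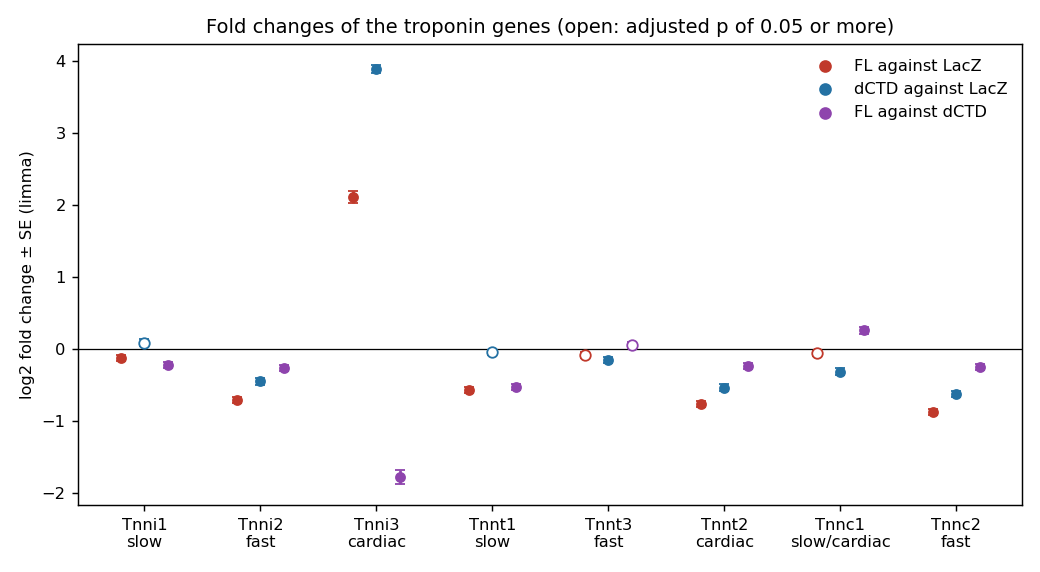
Log2 fold change (limma, ± SE) of the 8 troponin genes in the 3 comparisons, with open points for adjusted p of 0.05 or more. Tnni3 stands at 2.11 and 3.89 against LacZ, and the other 7 genes lie between -0.88 and 0.09 against LacZ.

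The authors' deposited table gives a log2 fold change of 2.10 for Tnni3 with FL and 3.85 with dCTD. For Tnnt3 with FL, the authors' deposited table gives -0.09 with an adjusted p of 0.0479, on the other side of the threshold from limma. The authors' deposited table places Tnnc1 with FL (adjusted p = 0.222), Tnni1 with dCTD (adjusted p = 0.119) and Tnnt1 with dCTD (adjusted p = 0.326) outside it.

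Levels were compared between genes per kilobase of the principal transcript. With LacZ, Tnnc1 was the highest, at 330057 normalized counts per kb, followed by Tnnt3 at 181651, and then by Tnni1 at 156482 and Tnnt2 at 149150, whose libraries overlapped. Tnnc2 at 117938, Tnni2 at 89191, Tnnt1 at 74266 and Tnni3 at 652 followed, each separate from its neighbour. With FL the order was the same and no neighbours overlapped, the lower genes being Tnni2 at 54510, Tnnt1 at 50031 and Tnni3 at 2828 per kb. With dCTD, Tnni1 at 167276 and Tnnt3 at 164549 per kb overlapped, as did Tnnc2 at 76631 with Tnnt1 at 72145, and Tnnt1 with Tnni2 at 65628. Tnni3 remained lowest there, at 9710 per kb.

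The log2 ratio of slow to fast form within a library does not depend on the scaling of libraries. For troponin I (Tnni1 to Tnni2) it was 1.33 with LacZ (SD 0.0581, n = 3), 1.91 with FL (SD 0.0216) and 1.87 with dCTD (SD 0.0441). For troponin C (Tnnc1 to Tnnc2) it was 1.53 (SD 0.0289), 2.35 (SD 0.0427) and 1.84 (SD 0.0319) in the same order. For troponin T (Tnnt1 to Tnnt3) it was -1.06 (SD 0.0277), -1.54 (SD 0.0441) and -0.96 (SD 0.0613). With FL the ratio of troponin I was thus 1.5 times and that of troponin C 1.77 times the LacZ ratio, and that of troponin T 0.716 times. With dCTD the ratios were 1.45, 1.24 and 1.07 times those of LacZ for I, C and T. FL against dCTD was 1.03 times for I, 1.43 times for C and 0.667 times for T. In 8 of 9 comparisons the groups did not overlap and the exact permutation test gave p = 0.1 (two-sided, adjusted p = 0.1125 over the 9), the smallest that 3 against 3 libraries allow. For troponin I with FL against dCTD the groups overlapped and the exact permutation p was 0.2 (adjusted 0.2). This exact permutation test cannot go below 0.1 here, so it cannot place any ratio past 0.05.

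**Figure D3:**
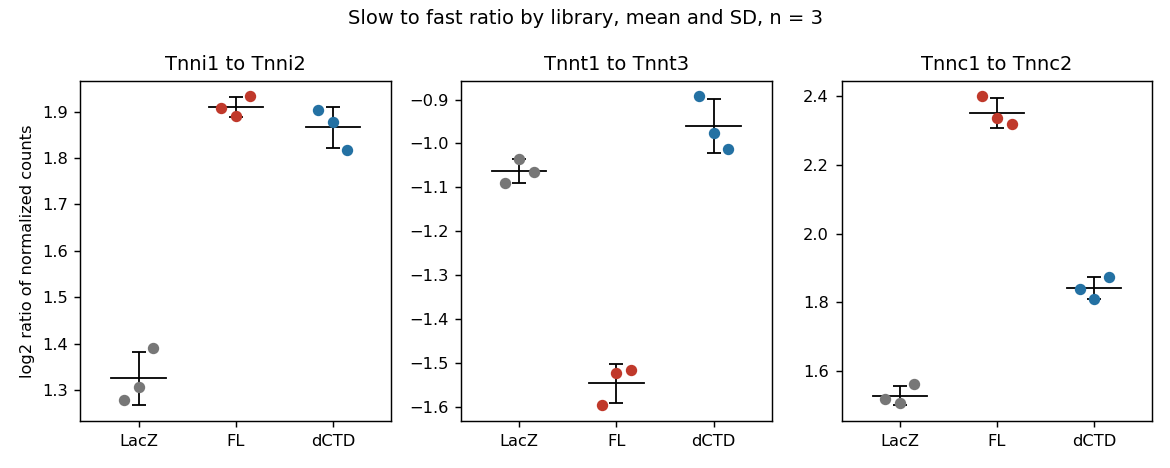
Log2 ratio of slow to fast form in each library for troponin I, T and C, by virus, with mean and SD (n = 3). Troponin I and C ratios sit higher with FL and dCTD than with LacZ, while the troponin T ratio sits lowest with FL.

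As shares of each subunit per kilobase, Tnni1 made up 63.5% of troponin I transcripts with LacZ (SD 0.935, n = 3), 71.4% with FL (SD 0.281) and 69.0% with dCTD (SD 0.669). Tnni3 was 0.265% (SD 0.0156), 1.41% (SD 0.184) and 4.00% (SD 0.107) of them, so the cardiac form stayed a small part of troponin I. Of troponin T, Tnnt3 was 44.8% (SD 0.610) with LacZ, 55.4% (SD 1.09) with FL and 48.4% (SD 0.442) with dCTD, as Tnnt2 was 36.8%, 28.4% and 30.4%. Tnnt1 was 18.3%, 16.2% and 21.2% of troponin T. Of troponin C, Tnnc1 was 73.7% with LacZ (SD 0.387), 83.2% with FL (SD 0.412) and 77.7% with dCTD (SD 0.384). The shares describe RNA, not protein, and depend on the length taken for each gene, as do the levels per kb. With the union of all exons as length, a choice made after seeing the data, Tnnt2 was 14.0%, 9.91% and 10.9% of troponin T with LacZ, FL and dCTD, below Tnnt1, and Tnnt3 was 64.0%, 72.3% and 65.1%. With no division by length, Tnnt2 (42.1%) was above Tnnt3 (39.2%) with LacZ. Under each of these lengths the share of Tnnt2 was highest with LacZ and that of Tnnt3 highest with FL. A gene has the same length in all groups, and with these counts no choice of length could change that order. The kept order is therefore no added support. The summed level per kb, as a ratio to LacZ, was 0.815 with FL and 0.985 with dCTD for troponin I, 0.762 and 0.839 for T, and 0.853 and 0.766 for C. The dCTD libraries overlapped those of LacZ for the sum of troponin I.

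**Figure D4:**
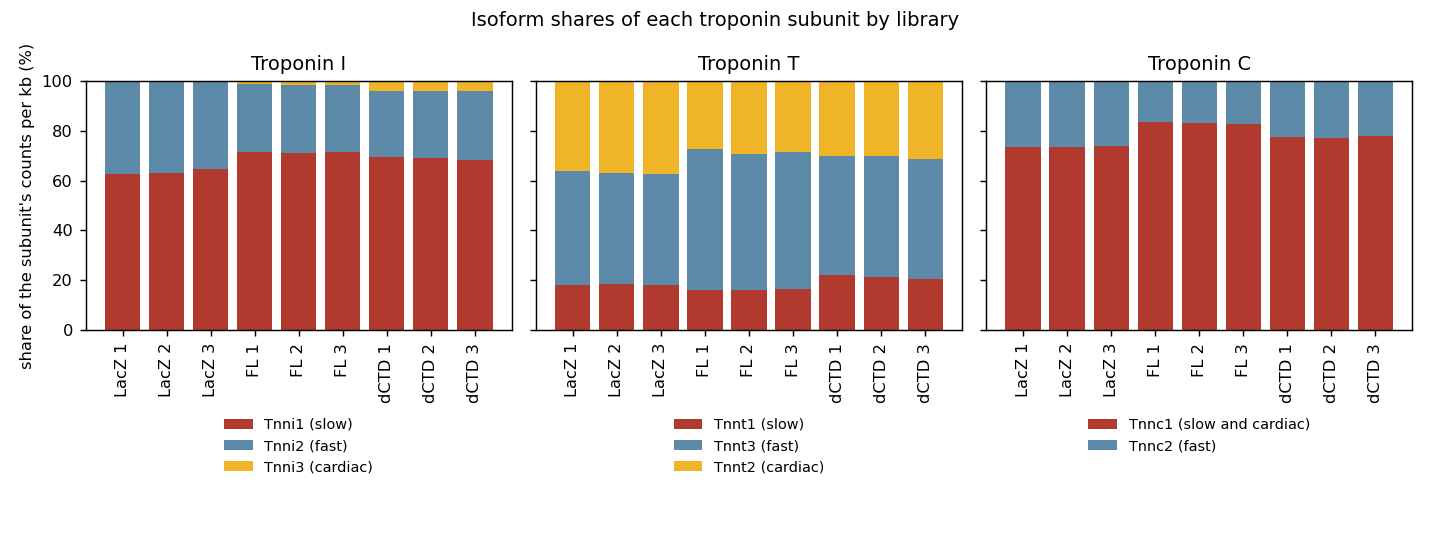
Share of each form in troponin I, T and C (percent of normalized counts per kilobase of the principal transcript), with a stacked bar for each of the 9 libraries. The fast share of troponin T is largest with FL and the share of Tnnc1 in troponin C is also largest with FL.

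The 6 genes of troponin I and T lie in 3 pairs, in each of which a troponin I gene is near a troponin T gene on the same strand, while Tnnc1 and Tnnc2 are each the only troponin gene on their chromosome. Tnni1 and Tnnt2 are 25364 bp apart with Lad1 between them, Tnni2 and Tnnt3 are 54425 bp apart with Lsp1 between them, and Tnnt1 and Tnni3 are 1922 bp apart with 0 genes between. Within the pairs, the log2 fold changes with FL were -0.57 for Tnnt1 and 2.11 for Tnni3, -0.71 for Tnni2 and -0.09 for Tnnt3, and -0.12 for Tnni1 and -0.77 for Tnnt2. Lad1 and Lsp1 did not pass the test in any of the 3 comparisons.

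Genes that share ground with a troponin gene could exchange reads with it, since how the counting treated strand and overlaps is not given. Dnaaf3 lies over 1297 bp of Tnni3 on the same strand, so strand could not separate their reads there. It had mean normalized counts of 105, 98.1 and 92.9 with LacZ, FL and dCTD, and did not pass in any comparison. These were 17.6%, 3.80% and 1.05% of the Tnni3 counts. Nisch, opposite to Tnnc1 over 3418 bp, had 48605, 50397 and 46533, and passed only for FL against dCTD (log2 0.12, limma, adjusted p = 0.00958). Its counts were 20.4% to 24.2% of those of Tnnc1, and its direction there was that of Tnnc1. Ube2c, opposite to Tnnc2 over 1662 bp, had 713 to 784. Prr33, opposite to Tnnt3 over 7936 bp, had 56.9 normalized counts in the mean of the LacZ group, 202 in FL and 205 in dCTD, with log2 fold changes of 1.82 (limma, adjusted p = 2.89e-13) and 1.81 (adjusted p = 3.82e-10). These levels were 0.036% to 0.142% of the Tnnt3 count.

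Among 22 other thin filament genes, listed with earlier results of these data known, 4 rose and 16 fell with FL, 4 rose and 13 fell with dCTD, and 2 were higher and 13 lower with FL than with dCTD, beside 59.2%, 44.8% and 38.9% of all tested genes that passed in either direction. Tpm3, which encodes a slow-muscle and several cytoskeletal tropomyosins, rose, with log2 fold changes of 1.71 ± 0.04 (limma, adjusted p = 2.74e-26) and 1.64 ± 0.04 (adjusted p = 1.15e-19), with FL against dCTD at 0.06 (adjusted p = 0.262). Lmod3, a nucleator of thin filaments, fell (log2 -1.43 with FL and -0.89 with dCTD), as did Cap2, which binds actin (-1.24 and -0.69). Klhl41, which stabilises nebulin, also fell (-0.97 with FL and -0.17 with dCTD).

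**Figure D5:**
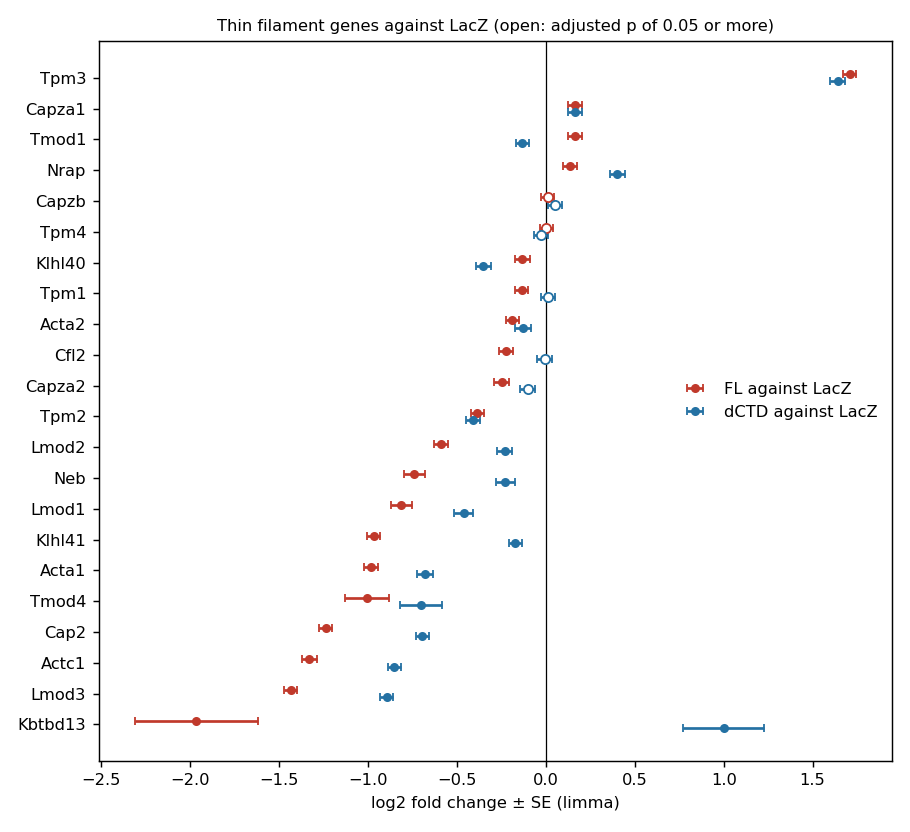
Log2 fold change (limma, ± SE) of 22 thin filament genes against LacZ for FL and dCTD, with open points for adjusted p of 0.05 or more. Tpm3 is highest in both, at 1.71 and 1.64, and Kbtbd13 lies at -1.96 with FL and 1.0 with dCTD. Kbtbd13 had a low level, with a mean of 21.8 normalized counts with LacZ.

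Of 13 tested slow-fibre genes, 4 rose and 8 fell with FL and 4 rose and 6 fell with dCTD. Of 15 fast-fibre genes, 2 rose and 13 fell with FL and 2 rose and 10 fell with dCTD. The shares of all tested genes that passed were again 59.2% and 44.8%. The median log2 fold changes with FL and dCTD were -0.52 and -0.17 for the slow list and -1.12 and -0.31 for the fast list, beside the all-gene medians given above. Csrp3, the muscle LIM protein, fell (log2 -1.85 with FL and -1.18 with dCTD), and so did Myh7, the slow myosin heavy chain (-1.16 and -0.75). Pln, the phospholamban that restrains the calcium pump SERCA2, had 6.45 normalized counts with LacZ, 288 with FL and 970 with dCTD, and its difference between FL and dCTD was -1.75 ± 0.17 (limma, adjusted p = 3.09e-08). Atp2a1, the fast calcium pump, fell (-1.12 and -0.61), as did the fast myosin gene Myh1 (-1.14 and -0.28). The 2 genes of the fast list that rose with FL were Pvalb (log2 1.73) and Mybpc2 (0.34). Pvalb also rose with dCTD (1.36).

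Of 27 tested regulators of troponin genes, 5 rose and 13 fell with FL, and of 26 tested with dCTD 4 rose and 9 fell. The transcription factor genes Mef2c (log2 -1.29 with FL and -0.84 with dCTD) and Tead4 (-0.98 and -0.77) fell, and Gata4, a cardiac transcription factor, rose (1.04 and 0.54). Of 16 splicing factors of troponin T, 3 rose and 7 fell with FL and 1 rose and 6 fell with dCTD. Rbfox1, a splicing factor of muscle and brain, fell (-1.84 with FL and -0.32 with dCTD). Counts per gene do not show which troponin T exons were spliced. A list drawn up around troponin held genes of kinases, kinase regulatory subunits, proteases and ubiquitin ligases. Of its 14 tested genes, 5 rose and 8 fell with FL, and 2 rose and 4 fell with dCTD. Trim63, a ubiquitin ligase that targets troponin I, was at log2 -1.34 and -0.58. Of all tested genes, 59.2% passed with FL (30.9% higher, 28.3% lower) and 44.8% with dCTD (23.1% higher, 21.7% lower). Counts in either direction do not set the regulators and splicing factors apart, though both lists had more falls than rises.

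Tnni3 is a cardiac gene, so the other markers of heart muscle are given beside it. Of 12 markers 6 were tested, of which 1 rose and 3 fell with FL, and 2 rose and 2 fell with dCTD. Tbx5 and Hand2 were at 0 in all libraries, and Nkx2-5 had 10.8 to 18.9 normalized counts in the 9 libraries and did not pass. Myh6 fell with both viruses (log2 -1.13 and -0.69). Gata4 rose, to 2.06 times its LacZ level with FL and 1.46 times with dCTD. Nppb rose with dCTD, to 1.46 times, and fell with FL, to 0.772 times. Outside this list Pln, Myl2 and Tnni3k, whose values are given elsewhere in the text, were also highest with dCTD. The summed level of the cardiac list ran from 106148 to 134458 normalized counts in the LacZ libraries, from 81306 to 89672 in FL and from 84474 to 88522 in dCTD, and Myl4, which embryonic skeletal muscle also expresses, made up 104764 to 132968 of it with LacZ. Of other cell types, the fibroblast list of 9 tested genes had 2 up and 2 down with FL and 1 up and 1 down with dCTD, and the smooth muscle list of 8 had 2 up and 4 down with FL, and 0 up and 4 down of 7 with dCTD. In the adipocyte list, 2 of 8 genes were tested with FL and both rose, and 1 was tested with dCTD and rose. The summed level of this list ran from 575 to 627 in LacZ, from 1222 to 1420.3 in FL and from 799.5 to 833 in dCTD. Most of this sum was Pparg, with means of 593, 972 and 799 normalized counts with LacZ, FL and dCTD. Cidec had means of 0.3, 371 and 6.06 in the same order. The other genes of this list had means below 10 in each group, with Cfd at 0 in all libraries. Beside these rises and falls, 59.2% of all tested genes passed with FL (30.9% higher, 28.3% lower) and 44.8% with dCTD (23.1% higher, 21.7% lower). The part of these cell types in the troponin values was not tested.

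Over the 9 libraries, the genes with the pattern most like each troponin gene were sought among 14383 genes with a mean of at least 50 normalized counts, as a description. The correlation of log2 values was highest with Pip5k1b (Pearson's r 0.997) and Selenop (0.994) for Tnni3, with Slc31a2 (0.997) and Dhrs7c (0.997) for Tnnt1, and with Plaat3 (0.998) and Dpp7 (0.998) for Tnnt2. For Tnnc2 they were Plaat3 (0.997) and Tnnt2 (0.997), and for Tnni2 Hsp90ab1 (0.996) and Zfas1 (0.995). For Tnni1, Tnnt3 and Tnnc1 the nearest genes were Tmem101 (0.974), Oscp1 (0.975) and Igtp (0.972). The 9 libraries fall into 3 groups, which all of these correlations share.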

How the data were processed

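RNA-seq of 9 libraries was analysed, 3 for each virus. The authors deposited 2 tables, whose signal per library is whole reads divided by a size factor, although the file headers call it counts. Whole reads were recovered for 100% of 317312 values above 0 (tolerance 0.001 reads), and LacZ reads were the same in both tables. The authors' log2 fold changes and p-values, per the file headers, were used where credited, and the authors' Wald statistic, a score, was not used. Tools named in the submitters' processing notes, without settings or roles, are STAR 2.7.2b, featureCounts 1.6.4, DESeq2 2.11.40.6, FastQC 0.72 and Trim Galore 0.4.3.1, with the build mm10.

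Each PGC-1α virus was tested against LacZ inside the table that holds both, with limma 3.58.1 (R 4.3.3, trend and robust) on log2(value + 1). Genes needed a mean of 10 or more. P-values were two-sided, adjusted by Benjamini-Hochberg over all tested genes, with 0.05 as threshold. The test of FL against dCTD used recovered reads, with all 9 libraries brought to one scale by median-of-ratios size factors, and the per-library values printed are on that scale. Fold changes of low genes are understated. P-values measure the spread between libraries, which may be technical in part. Alternatives used edgeR 4.0.16 and DESeq2 1.42.0. Only the limma fit was tested on simulated data, where far fewer genes changed than here and rises and falls were balanced. That test does not cover the ratios or shares, nor data with as many changes as these. Ratios and plots were made in Python 3.11.15 with pandas 2.3.3, scipy 1.17.1 and matplotlib 3.10.9. Gene lengths are those of the principal transcript (GENCODE), and positions count from 1.

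The members and all gene lists were chosen with earlier results of these data known. Named are the 8 members, Ppargc1a, overlapping genes, the 2 genes most like each member, and, from each list, up to 3 by smallest p with FL against LacZ plus up to 2 by that of FL against dCTD. Not all of these are printed. Lad1 and Lsp1 are named for their position. Myog, Nkx2-5, Tbx5, Hand2, Kbtbd13, Myl2, Tnni3k, Pvalb and Mybpc2 were chosen after their values were seen.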

Additional observations from a re-analysis of the deposited data

How the results depend on the processing

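The number of troponin genes past the threshold was 5 to 8 with FL against LacZ, 5 to 7 with dCTD against LacZ, and 7 between FL and dCTD over the alternatives tried, all 48 within 1.5 times the main count. With 8 genes in all, no count could rise beyond that bound, so only a fall could have broken it. The 72 alternatives of the slow-to-fast ratios, other pseudocounts or a library left out, all kept their direction. Where the groups did not overlap, leaving out a library could not turn it, and the pseudocounts were small beside these counts. The kept direction is therefore no added support. Tnnt3 with FL against dCTD changed sign, to -0.0115 (limma, adjusted p = 0.825), when libraries were scaled by total count without Ppargc1a. Tnnc1 with FL against LacZ passed under that scaling (-0.14, adjusted p = 0.000683), as did Tnnt3 (-0.17, adjusted p = 0.000109). Tnni1 with dCTD against LacZ passed with no filter on low values (adjusted p = 0.0169). The cause was not tested. With the replicate block in the fit, the counts were 6, 6 and 7, as without it. Same-numbered libraries had correlations of their deviations between -0.078 and 0.078, and 8 of 18 library and group cases correlated best with their own number, so the numbers were not taken as pairs.

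Shares moved with the length used. Not divided by length, Tnni1 was 71.3%, 77.9% and 75.5% with LacZ, FL and dCTD, Tnnt1 18.7% with LacZ and 17.0% with FL, Tnnt2 42.1%, 33.3% and 35.2%, Tnnt3 39.2%, 49.7% and 42.8%, and Tnnc1 74.2% with LacZ and 78.2% with dCTD. With the union of all exons, a choice made after seeing the data, Tnni1 was 50.9%, 59.9% and 57.3%, Tnnt1 22.0%, 17.8% and 24.0%, Tnnt2 14.0%, 9.91% and 10.9%, Tnnt3 64.0%, 72.3% and 65.1%, and Tnnc1 68.9%, 79.7% and 73.3%.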

Other observations

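The genes given here were picked one by one and stand for no group. Myl2, Tnni3k and Kbtbd13 were chosen after their values were seen. Myl2, the regulatory myosin light chain of slow and cardiac muscle, ran from 2296 to 2510 normalized counts in the LacZ libraries, from 2699 to 3108 in FL and from 6388 to 8679 in dCTD. Its log2 fold change was 0.29 with FL and 1.67 with dCTD, and -1.39 for FL against dCTD (limma, adjusted p = 4.26e-05). Tnni3k, a cardiac kinase named for its binding to troponin I, rose with FL and dCTD (log2 0.78 and 1.38, limma, adjusted p = 0.00402 and 9.55e-06), at a low level of 27.1 normalized counts with LacZ and 70.4 with dCTD. Kbtbd13, a thin filament gene, was lower with FL (log2 -1.96, limma, adjusted p = 1.29e-05) and higher with dCTD (1.0, adjusted p = 0.000857) than with LacZ. Its level was low, at means of 21.8 normalized counts with LacZ, 4.82 with FL and 44.8 with dCTD. Nppb, a natriuretic peptide, fell with FL (-0.40) and rose with dCTD (0.53).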
